A study of Mus musculus with 4 samples.

Results

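The regions described here are 8 maternal imprint control regions that lie outside mouse chromosome 7, those of Mest, Peg10, Plagl1, Grb10, Zrsr1, Nnat, Igf2r and Impact. They are defined by position on mm9, and their members are the CG sites that reached 5 reads in all 4 libraries. That left 995 of the 1173 CG sites listed in the regions, and 2638319 CG sites met the same minimum on chromosomes 1 to 19, X and Y. DNA methylation had been measured by targeted bisulfite sequencing (TGBS), in which capture probes enrich chosen DNA and bisulfite converts cytosines that carry no methyl group, so that the level of a CG site is the percentage of its reads that kept the cytosine. All 4 libraries came from spermatozoa of wild-type C57BL/6 mice, released into M2 medium over 1 hour at 37 °C. The 2 swim-up libraries hold sperm that had swum into the upper medium, and whether the vas deferens was a source of them beside the tail of the epididymis is not clear from the sources used here. The 2 HRCS libraries hold histone replacement-completed sperm from both organs, dense sperm heads that were freed of their tails by mild sonication and pelleted through 82% Percoll. The labels do not say whether the 2 libraries of a fraction came from separate animals, so the spread between them may be technical. The swim-up libraries held 78562921 and 71379227 calls, a call being 1 read at 1 CG site, and the HRCS libraries held 89403347 and 78381101.

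An imprint control region carries DNA methylation on the copy from one parent and not on the copy from the other, and genes beside it are then read from a single copy. Maternal control regions are methylated in the growing oocyte and left unmethylated in the male germ line, and most of them lie at the promoter of a transcript made from the paternal copy. After fertilization the zinc finger proteins ZFP57 and ZFP445 keep the methyl groups on the marked copy, and ZFP57 recognises TGCCGC when its CG is methylated.

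The regions span from 2000 bp (Igf2r) to 5500 bp (Mest). Mest, which encodes a hydrolase-like protein of the paternal copy, was read at chr6:30684500-30690000. Peg10, a gene of retrotransposon origin that the placenta needs, was read at chr6:4696500-4700000, a stretch that also holds the start of Sgce, a sarcoglycan gene read in the opposite direction. Plagl1, which encodes a zinc finger transcription factor, was read at chr10:12809500-12812000, where the noncoding transcript Hymai also starts. Grb10, an adaptor that dampens insulin and growth factor signalling, was read at chr11:11925000-11927500. Zrsr1, a retrogene related to a splicing factor, was read at chr11:22871000-22874500, inside the gene Commd1. Nnat, which encodes the small membrane protein neuronatin, was read at chr2:157384500-157388000, inside the gene Blcap. The Igf2r region at chr17:12934000-12936000 lies within the gene of the receptor that clears IGF2, and the noncoding RNA Airn starts there. Impact encodes an inhibitor of the kinase GCN2. The order of CG sites in each region was found at exactly 1 place of the GRCm38.p6 assembly, and gene parts were read there. By that annotation all 164 listed CG sites of the Grb10 region are intronic, 99 of 103 in the Igf2r region and 126 of 144 in the Impact region are intronic, and 122 of 137 in the Zrsr1 region and 77 of 122 in the Plagl1 region are exonic. A transcript start lay 177 bp (Airn), 432 bp (Impact), 806 bp (Peg10), 1005 bp (Zrsr1), 1138 bp (Plagl1), 1314 bp (Nnat) and 3550 bp (Mest) after the first base of its region, and no transcript started within the Grb10 region. GC content ran from 49.8% (Mest) to 58.0% (Igf2r), and the ratio of observed to expected CG from 0.564 (Mest) to 0.841 (Grb10).

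The promoters inside the regions show what these low levels were measured on. RefSeq promoter sequences of GRCm38.p6 run from 250 bp before to 50 bp after a transcript start, and 9 of the 12 gene symbols asked for were matched. Below are those inside the regions whose spacing of CG sites was found once in the tables, 5′ to 3′ in the direction of the gene, with the CG dinucleotides in capitals.
Mest promoter: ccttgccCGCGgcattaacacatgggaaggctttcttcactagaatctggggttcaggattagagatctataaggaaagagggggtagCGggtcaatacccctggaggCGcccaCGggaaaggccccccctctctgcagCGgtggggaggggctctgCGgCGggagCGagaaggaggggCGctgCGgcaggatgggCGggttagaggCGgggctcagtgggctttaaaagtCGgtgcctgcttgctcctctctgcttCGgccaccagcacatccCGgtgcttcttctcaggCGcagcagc
Plagl1 promoter: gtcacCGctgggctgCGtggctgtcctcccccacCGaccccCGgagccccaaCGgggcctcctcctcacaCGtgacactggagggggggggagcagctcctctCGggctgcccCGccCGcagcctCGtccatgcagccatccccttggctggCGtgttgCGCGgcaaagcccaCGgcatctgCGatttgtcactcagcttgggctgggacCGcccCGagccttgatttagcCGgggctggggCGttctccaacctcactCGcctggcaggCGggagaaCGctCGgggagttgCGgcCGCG
Zrsr1 promoter: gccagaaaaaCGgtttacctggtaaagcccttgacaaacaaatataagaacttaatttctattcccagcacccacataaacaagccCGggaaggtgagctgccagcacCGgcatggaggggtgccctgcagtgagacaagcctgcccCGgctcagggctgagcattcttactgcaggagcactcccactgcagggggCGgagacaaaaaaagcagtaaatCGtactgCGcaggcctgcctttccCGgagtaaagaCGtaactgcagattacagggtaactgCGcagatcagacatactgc
Commd1 promoter inside the Zrsr1 region: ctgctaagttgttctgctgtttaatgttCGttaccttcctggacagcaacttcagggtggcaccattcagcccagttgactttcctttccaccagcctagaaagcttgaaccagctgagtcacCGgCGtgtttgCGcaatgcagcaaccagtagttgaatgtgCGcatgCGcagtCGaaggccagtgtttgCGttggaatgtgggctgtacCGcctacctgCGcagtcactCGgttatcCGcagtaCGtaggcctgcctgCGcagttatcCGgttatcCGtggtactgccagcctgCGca
Nnat promoter: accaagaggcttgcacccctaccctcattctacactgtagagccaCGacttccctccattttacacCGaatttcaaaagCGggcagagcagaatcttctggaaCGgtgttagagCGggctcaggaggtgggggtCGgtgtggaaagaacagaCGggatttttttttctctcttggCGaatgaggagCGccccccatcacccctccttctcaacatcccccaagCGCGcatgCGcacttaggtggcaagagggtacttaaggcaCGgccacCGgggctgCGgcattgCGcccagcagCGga
All 17 CG sites of the Mest promoter passed the read minimum, with levels of 0.709% and 0.749% in swim-up sperm and of 1.63% and 1.24% in HRCS, and 8 of the 17 had no methylated read in any library. The 26 CG sites of the Plagl1 promoter had levels of 2.56% and 1.18% in swim-up sperm and of 0.866% and 2.66% in HRCS. In the Zrsr1 promoter 9 of 10 CG sites passed, at 0.463%, 0.741%, 0.736% and 1.11% in the same order of libraries. The 17 CG sites of the Commd1 promoter lay at 0.627%, 0.934%, 2.11% and 1.45%, and each had at least 1 methylated read. The 17 CG sites of the Nnat promoter lay at 0.632%, 1.37%, 1.35% and 0.859%. Every one of these promoters stayed under 3% in every library. Peg10, Sgce and Impact had no promoter sequence to match, and that of Airn was not matched to a single place. The Impact start 432 bp into its region stood on a methylated slope described below, so the statement does not cover it. The highest single CG site among them, at 8.45% on average over the libraries, was position 12810429 in the Plagl1 promoter.

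The letters TGCCGC, read on the plus strand of the assembly only, surrounded 27 of the 1173 listed CG sites of the regions (2.30%). Sites of the regions with the letters on the minus strand were not counted. On both strands together, the letters surrounded 0.786% of all CG sites on the 6 chromosomes concerned, so these shares are not alike. Mest had 8 of these sites, Impact 5, Igf2r and Nnat 4 each, Plagl1 3, Peg10 2, Grb10 1 and Zrsr1 none. Searched on both strands, the letters were found in 11.6% of all 32851 RefSeq promoters. Among the sequences above they occur in those of Mest, Plagl1 and Nnat, each time as the reverse complement GCGGCA and so outside the 27. In sperm, 24 of the 27 passed the read minimum, and 42 of their 2901 calls were methylated (1.45%), against 2667 of 118207 calls (2.26%) at the other CG sites. The direction, for these plus-strand sites only, was not the same in every region. Sites within the letters were lower than the rest in Impact (0.565% against 3.93%), Igf2r (1.12% against 5.00%), Nnat (3.48% against 4.60%) and Plagl1 (0.812% against 1.70%), and higher in Mest (1.45% against 1.26%), Peg10 (2.70% against 1.14%) and Grb10 (2.97% against 1.26%), in the last 2 from a single measured site each. The other CG sites include those with the letters on the minus strand, and the methylated edges of Impact, Igf2r and Nnat described below. The values therefore do not set all sites within the letters against sites without them. The letters alone are a description, since no binding was measured.

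All 8 regions were nearly unmethylated in sperm of both fractions. The level of a region is the mean over its CG sites, given below for each library. Mest lay at 1.00% and 1.02% in swim-up sperm and at 1.82% and 1.06% in HRCS. Peg10 lay at 0.861% and 1.24% in swim-up sperm and at 1.27% and 0.928% in HRCS. Grb10 lay at 1.13% and 0.883% in swim-up sperm and at 1.40% and 1.37% in HRCS. These regions of lowest level exchanged ranks between libraries. Zrsr1 lay at 1.59% and 1.49% in swim-up sperm and at 2.18% and 2.11% in HRCS. Plagl1 lay at 2.04% and 1.67% in swim-up sperm and at 1.61% and 2.82% in HRCS. At this minimum of 5 reads Zrsr1 was above Mest, Peg10 and Grb10 in every library, but at a minimum of 10 reads it averaged 0.987% in swim-up sperm, below Mest at 1.19%, and in HRCS too its mean of 1.24% was below that of Mest. With all calls of a region pooled, Zrsr1 lay at 1.23%, Mest at 1.27% and Grb10 at 1.27%, so no order among them held. Plagl1 was above Mest, Peg10 and Grb10 in every library but HRCS replicate 1, where Mest was higher. Igf2r lay at 4.35% and 3.51% in swim-up sperm and at 3.48% and 3.09% in HRCS. Nnat lay at 4.75% and 3.99% in swim-up sperm and at 4.45% and 4.53% in HRCS. Impact lay at 5.66% and 5.36% in swim-up sperm and at 5.05% and 5.62% in HRCS. Igf2r, Nnat and Impact took the 3 highest places in every library. Their order depended on the weighting. By site means Impact was highest, whereas with all calls pooled Igf2r lay at 4.87%, Nnat at 4.58% and Impact at 3.72%, and at a minimum of 10 reads the swim-up means were 4.58% for Igf2r, 3.59% for Nnat and 3.47% for Impact. At a minimum of 1 read the HRCS mean of Zrsr1, 4.23%, exceeded that of Igf2r, 3.13%, and at 20 reads the HRCS mean of Grb10, 2.83%, exceeded that of Impact, 2.59%.

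**Figure D1:**
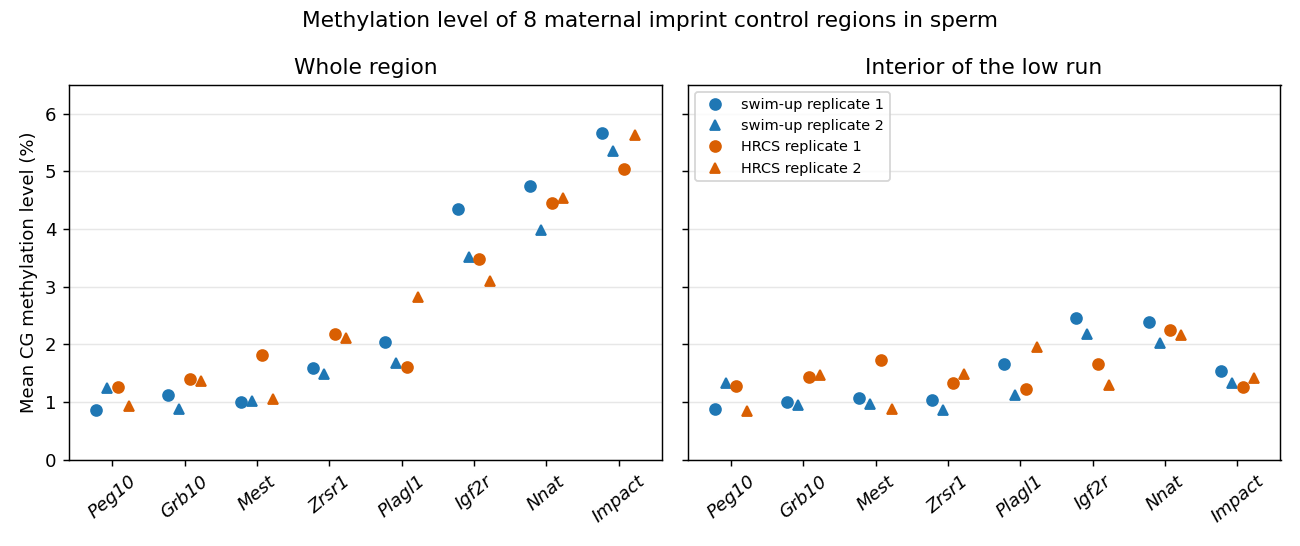
Mean CG methylation level (%, vertical axis) of each control region (horizontal axis) in the 4 libraries, with circles for replicate 1, triangles for replicate 2, blue for swim-up sperm and orange for HRCS. Over whole regions (left) Igf2r, Nnat and Impact stand above the others, while in the interior of the low run (right) every value is under 2.5% and Impact falls among the rest.

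As a check of the tables, whose columns carry no names, the same reading was applied to imprinted regions of known state. The control regions of H19 and Dlk1-Meg3, which are methylated in sperm, lay at 97.1% and 97.0% (mean of 4 libraries). The maternal control regions of Peg3, Snrpn and Kcnq1ot1 on chromosome 7 lay at 2.47%, 1.91% and 3.40%, within the range of the 8 regions described here, from 1.08% (Peg10) to 5.42% (Impact).

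The 995 CG sites held 121108 calls in all, with a median of 22 to 29 reads per site and library, and 2709 of the calls were methylated. Calls per region ran from 9927 (Igf2r) to 26723 (Zrsr1) over the 4 libraries. In swim-up replicate 1, for example, 38 of 4429 Peg10 calls were methylated (0.858%, 95% Wilson interval 0.626 to 1.18%), and 98 of 2664 Impact calls (3.68%, 3.03 to 4.46%). Those intervals cover counting error only, since reads amplified by PCR are not independent molecules and a read counts at each CG site it spans. A cytosine that escaped conversion also counts as methylated, and CG counts cannot tell it apart from a methylated one. Most calls of the regions, from 88.5% (Zrsr1) to 98.6% (Grb10), came from the minus strand in the notation of the tables.

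The methylated reads were not spread evenly. Of the 995 CG sites, 344 (34.6%) had no methylated read in any library. The share of such sites was highest in Grb10 (72 of 148, 48.6%) and Mest (65 of 143, 45.5%) and lowest in Zrsr1 (15 of 104, 14.4%), which was also the region read most deeply, at a median of 69 reads per site and library. The median level of single sites, with calls pooled over the libraries, was similar everywhere, from 0.794% (Mest) through 0.943% (Impact) to 1.56% (Nnat). At the other end, 31 sites were over 10% and 9 of them over 50%, and 28 of the 31 lay within 500 bp of the first or last CG site measured in their region. The share of all measured sites that lay so close to an end was not counted. It is not small, since the measured stretches are short, in Igf2r only from 12934169 to 12935931. Impact held 5 of the 9, and Nnat and Igf2r held 2 each. The 5 sites with most methylated calls held 68.5% of all methylated calls in Igf2r, 45.0% in Nnat and 38.3% in Impact, but 13.6% in Peg10 and 15.2% in Mest.

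Runs of CG sites without any methylated read were found in each region. The longest had 9 sites in Mest (30687424 to 30687807, 420 calls), Grb10 (11926352 to 11926392, 382 calls) and Impact (13132285 to 13132362, 530 calls). Igf2r had a run of 7 sites (12934884 to 12934976, 324 calls) and Peg10 one of 6 (4699139 to 4699157, 392 calls). The runs of Plagl1 (285 calls) and Nnat (248 calls) had 4 sites and that of Zrsr1 3 (366 calls). The runs were picked for holding no methylated read. At 3 calls as the floor, their 0 methylated calls allow from 0.566% (Impact) to 1.21% (Nnat), and these limits are too low because 1 read can be counted at several neighbouring sites of a run.

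The highest sites marked the edges of the unmethylated stretch. The Impact region was read at chr18:13130000-13133000. Its first CG sites, 13130071 to 13130086, were methylated at 93.2%, 97.2% and 100% on average. Site 13130086 was methylated in 8 of 8, 9 of 9, 9 of 9 and 10 of 10 reads. The next sites stepped down, to 67.9% at 13130277, 53.8% at 13130409, 25.9% at 13130435 and 20.0% at 13130575. The Impact start that lies 432 bp into the region stood on this slope. A second annotated Impact start, 2969 bp into the region, lay at its far end, where the last 500 bp were at 1.11%. The exonic CG sites of Impact, at 32.6%, included the methylated edge, which is exonic only in a predicted noncoding transcript, and its intronic sites lay at 1.19%.

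In Nnat the steeper slope was on the other side, while at its left edge sites 157384922 and 157384971 lay at 15.4% and 16.3% on average. Site 157387940 was methylated in 6 of 6 and 7 of 9 reads in swim-up sperm and in 14 of 17 and 14 of 16 reads in HRCS. Before it, site 157387832 lay at 43.2%, 32.6%, 40.9% and 35.7%, and site 157387597 at 38.7%, 26.7%, 23.8% and 35.0%. Each of these sites had methylated reads in all 4 libraries. In Igf2r, sites 12935913 and 12935923 near the end of the region lay at 71.1% and 61.6% on average, while the last measured site, 12935931, was lower. Site 12935913 was read deeply, with 23 of 32 and 33 of 47 methylated reads in swim-up sperm, and in HRCS 40 of 53 and 24 of 36. Site 12935725 before them varied more, from 19.1% and 51.3% in swim-up sperm to 37.8% and 20.0% in HRCS.

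The other regions had lower maxima among the sites measured inside them. That does not show weaker edges, since an edge was not always covered by measured sites. In Plagl1, site 12809661 near the first base lay at 26.3%, 36.4%, 35.1% and 37.9%. In Zrsr1, site 22871664 was methylated in 6 of 14 and 3 of 5 reads in swim-up sperm, and in HRCS in 6 of 8 and 2 of 8. Mest, Peg10 and Grb10 had no site over 10%. Their highest were 30687053 in Mest (8.42% on average, with 4 of 18 reads in swim-up replicate 1 and 0 of 19 in HRCS replicate 2), 4697489 in Peg10 (4.29%) and 11926457 in Grb10 (7.57%). The reads behind these maxima were few, and none of the 3 sites was methylated in every library.

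**Figure D2:**
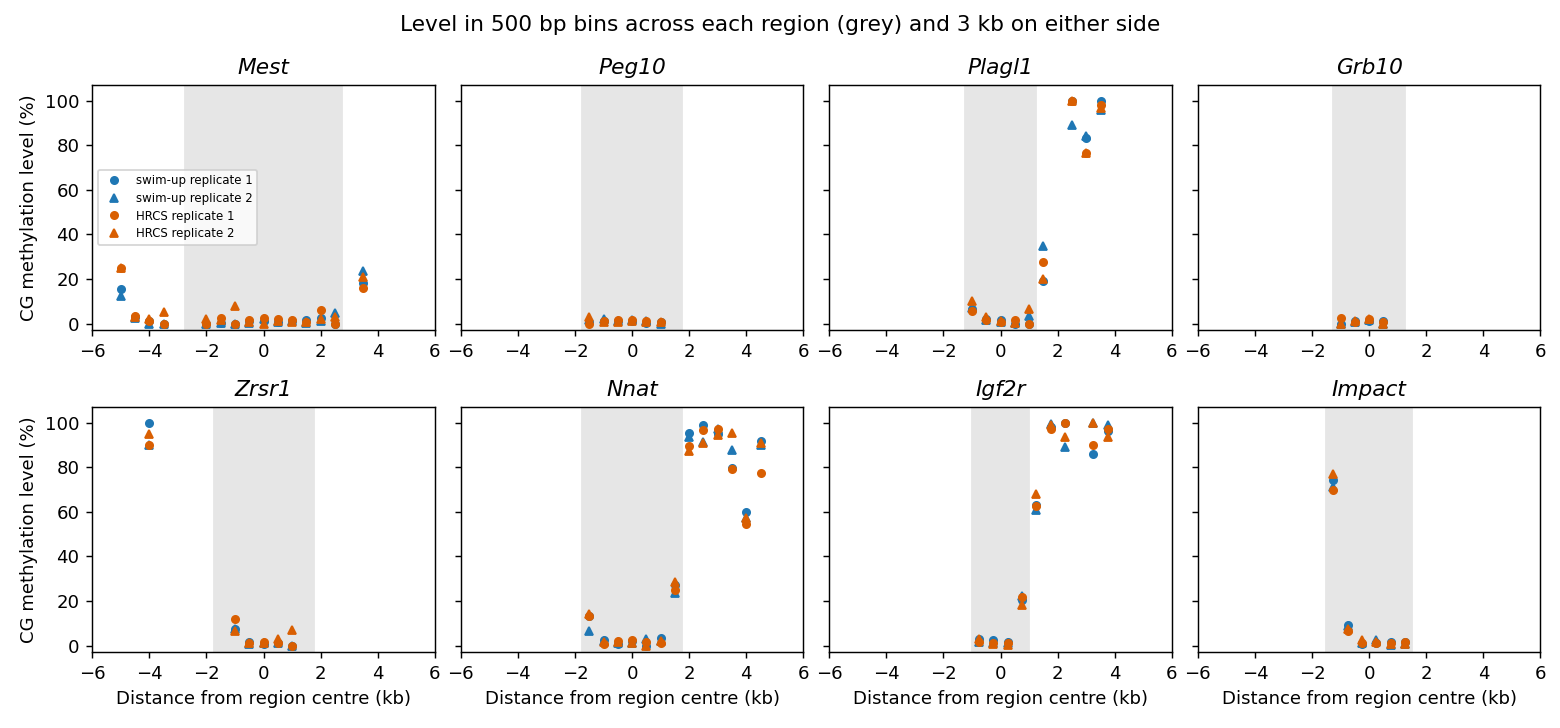
CG methylation level (%, vertical axis) in 500 bp bins against distance from the centre of each region (kb, horizontal axis), with the region in grey and 1 symbol per library. Averaged over the libraries, the bins inside the regions stay under 3% except near the edges, at 73.0% and 7.96% on the left of Impact, 26.0% on the right and 11.8% on the left of Nnat, 20.7% on the right of Igf2r, 8.38% on the left of Zrsr1 and 7.28% on the left of Plagl1, and the bins beyond Plagl1, Nnat and Igf2r rise to high levels in all 4 libraries.

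CG sites outside the regions showed where the low run ended. Between 10 kb before a region and 10 kb after it, the low run was taken as the longest run of CG sites whose running mean over 5 sites stayed under 50%. To the right of Nnat a running mean of 80% was reached 239 bp after the end of the run, and to the right of Igf2r after 294 bp. To the left of Impact it was reached 349 bp before the run. Plagl1 reached it 1652 bp to the right. Around Peg10 no CG site within 3 kb had enough reads, and 80% was reached 6763 bp to the left and 7049 bp to the right, so the edge itself was not seen. The 27 sites measured before Peg10 lay at 94.4%, 90.3%, 89.8% and 92.6%. The 5 sites measured before Zrsr1 lay at 100%, 96.0%, 96.0% and 95.6%. No 80% border was found within 10 kb on either side of Mest or after Zrsr1 and Grb10. The 37 sites before Mest lay at 2.27%, 1.49%, 2.66% and 3.15%, and the 7 after it at 41.7%, 43.8%, 39.99% and 43.4%. The 53 sites after Zrsr1 lay at 1.22%, 1.12%, 1.13% and 1.63%, and the 74 after Grb10 at 5.52%, 3.92%, 5.75% and 5.41%. Both groups of sites lay beyond the long unmeasured stretches given below. They included a Commd1 promoter and part of a Grb10 promoter, so they do not show a continuous low run. Within 10 kb no site had enough reads before Plagl1, Grb10, Nnat, Igf2r and Impact or after Impact.

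The runs as first defined joined stretches separated by unmeasured sequence of 1837 bp in Mest, 8505 bp in Grb10 and 8287 bp in Zrsr1. Split at gaps of over 1 kb, a choice made after seeing the data, the low run was 4126 bp long in Mest, 2912 bp in Nnat, 2614 bp in Peg10, 2543 bp in Plagl1, 2479 bp in Impact, 1892 bp in Igf2r, 1880 bp in Zrsr1 and 1395 bp in Grb10. In Mest, Peg10 and Grb10 both ends were the first and last CG sites measured in the region. The same held for the left end in Plagl1, Nnat and Igf2r and for the right end in Impact and Zrsr1. There the lengths reflect coverage, not a methylated border. Without the 5 outermost sites on either end, mean levels over the 4 libraries were 1.08% (Peg10), 1.17% (Mest), 1.19% (Zrsr1), 1.21% (Grb10), 1.39% (Impact), 1.49% (Plagl1), 1.90% (Igf2r) and 2.20% (Nnat). Impact, the highest of the whole regions by site means at 5 reads, fell within the range of the others here. Nnat lay at 2.38% and 2.03% in swim-up sperm and at 2.25% and 2.16% in HRCS, and its highest interior site was at 31.4%. The interiors of Peg3, Snrpn and Kcnq1ot1, treated alike, lay at 1.33%, 1.52% and 0.841%.

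The low level was set beside windows of the same CG density. Of windows of 200 bp with at least 3 measured CG sites, 89 fell in the regions and 316993 in the genome. Among windows with 3 to 5 listed CG sites, the 14 in the regions had a median of 7.26%, against 91.1% for all 166221. Among windows with 6 to 9, the 27 in the regions had a median of 1.34%, against 6.56%. From 10 CG sites on the values were close, with 1.25% against 1.27% at 10 to 14, 1.15% against 1.09% at 15 to 19 and 1.26% against 1.11% at 20 or more. At or below 5% were 24 of the 27 region windows with 6 to 9 CG sites (88.9%), against 47.6% of all such windows, and all 48 region windows with 10 or more. Of all windows, 81.7% were at or below 5% at 10 to 14 CG sites, 95.7% at 15 to 19 and 98.9% at 20 or more. Only 2 region windows exceeded 50%, both among the 14 with 3 to 5 listed CG sites (14.3%, against 65.3% of all windows of that class). Without regard to density the shares were 2.25% and 44.5%. Neighbouring windows are not independent, so these shares are descriptions without a test.

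**Figure D3:**
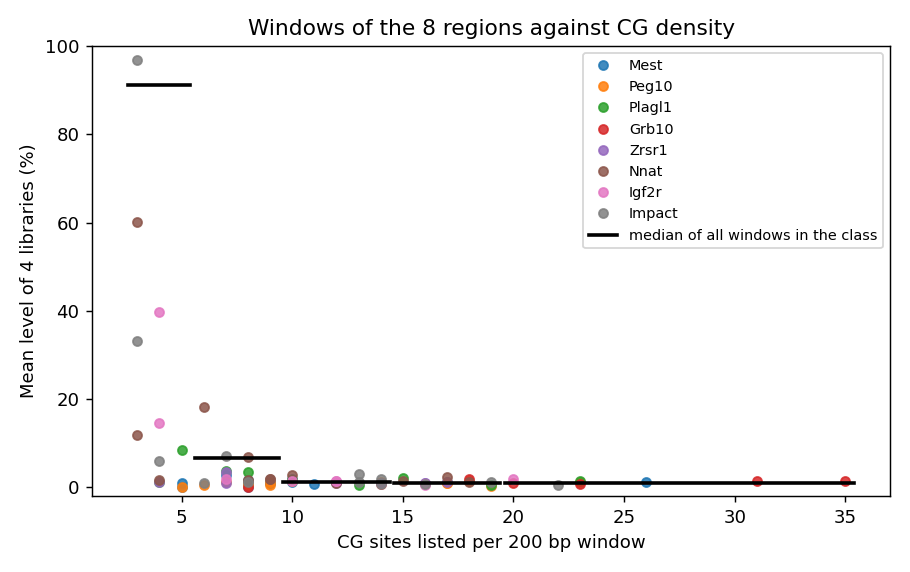
Mean level of the 4 libraries (%, vertical axis) of each of the 89 region windows against its number of listed CG sites (horizontal axis), coloured by region, with the median of all windows of each density class as a black line. Region windows of few CG sites lie mostly below the line for their class, and those with 10 or more CG sites lie near it.

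HRCS and swim-up sperm were then compared at these regions. The paper reports that only a small part of swim-up sperm had not completed histone replacement. A difference tied to that part would be diluted in the swim-up level, so these values cannot answer whether completion of replacement matters. Averaged over the 8 regions, swim-up sperm lay at 2.53% ± 0.195 and HRCS at 2.68% ± 0.0243 (SD, n = 2 each), a difference of 0.141 percentage points (two-sided exact permutation test, p = 0.667). The difference was -0.0541 points at a minimum of 10 reads and 0.00310 points without swim-up replicate 2. With 2 libraries a fraction, 0.333 is the smallest p possible, so no single value could pass 0.05. The mean was higher in HRCS in 6 regions and lower in 2. The libraries of the 2 fractions did not overlap in 4 of the 8 regions, which were Zrsr1, Mest, Grb10 and Igf2r. No share for other stretches of that length was taken. Of the shorter 200 bp windows, the libraries did not overlap in 28.1% within the regions and in 32.7% of all. The libraries did overlap in Mest at a minimum of 10 reads and in Zrsr1 at 20 reads and on either strand alone. They also overlapped in Igf2r with pooled calls and on the minus strand alone. Zrsr1 was higher in HRCS by 0.605 points, Mest by 0.428 and Grb10 by 0.382, and Igf2r was lower, with a difference of -0.643 (each p = 0.333, exact permutation test, and 0.667 after Benjamini-Hochberg adjustment over the 8). The difference of Zrsr1 was 0.249 points at a minimum of 10 reads, 0.0264 on the minus strand alone and 1.58 at a minimum of 1 read. That of Grb10 rose to 1.72 at 20 reads and that of Igf2r was -1.03 at 10 reads. In Plagl1 (0.364), Nnat (0.126), Peg10 (0.0464) and Impact (-0.179) the libraries of the fractions overlapped. In Mest the higher HRCS mean rested on replicate 1, since replicate 2, at 1.06%, was 0.0451 points above the swim-up mean. In Grb10 the methylated calls of HRCS were clustered. Of the 43 in HRCS replicate 1, 20 fell at 11926401 to 11926600, and of the 49 in HRCS replicate 2, 26 fell at 11926201 to 11926400. Neighbouring sites there can be covered by the same read.

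Single windows gave no call either. In the quasi-likelihood test of edgeR, adjusted by Benjamini-Hochberg over all 316993 windows, 13 windows passed an adjusted p of 0.05 (0.0041%), and 0 of the 89 region windows did. limma called 0% of all windows, so its 0 of the 89 says nothing about the regions. An exact test by Fisher, run on summed calls of each fraction and so blind to the spread between libraries, called 2397 of all windows (0.756%) and 0 of the 89. The shares called by edgeR and by Fisher's test are so small that 0 of 89 says little about the regions either. At an unadjusted p under 0.05 the edgeR test gave 10 of the 89 (11.2%), 7 higher and 3 lower in HRCS, against 4.61% of all windows. At the same threshold limma gave 7 of the 89 and 20648 of all 316993 windows. Fisher's test gave 12 of the 89 and 30608 of all 316993. These shares depend on the test, and neighbouring windows are not independent, so no excess is read from them. Libraries of the 2 fractions did not overlap in 25 region windows (28.1%), 16 higher and 9 lower in HRCS, a share below the 32.7% of all windows. The absolute difference had a median of 0.784 points in the regions and 1.27 points over all windows. Single libraries differ more than means of 2, so they were also compared 1 against 1. The median absolute difference of the region windows was 0.835 points between the swim-up libraries, 0.794 between the HRCS libraries and from 0.851 to 1.02 over the 4 pairs of libraries from different fractions. No region window differed by over 10 points between the fractions, against 3.18% of all windows. Windows of low level have little room to differ, and 87.6% of the region windows were at or below 5%, against 41.6% of all windows, so these comparisons with all windows do not show that the regions are more stable.

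In Impact, Nnat and Igf2r the windows with the highest level and those with the largest difference were edge windows. The Impact window 13130001 to 13130200 held 21 of 21 and 22 of 22 methylated calls in swim-up sperm, and in HRCS 26 of 27 and 29 of 32, a difference of -6.40 points between the means of site levels (adjusted p = 1, edgeR). The Nnat window 157387801 to 157388000 lay at 58.8% and 55.3% in swim-up sperm and at 60.7% and 66.1% in HRCS, 6.31 points higher (adjusted p = 1, edgeR). The Igf2r window 12935601 to 12935800 had the largest difference of all 89, at 9.17% and 27.4% against 12.9% and 8.55%. There the 2 swim-up libraries lay further apart than the fractions. The highest Igf2r window, 12935801 to 12936000, lay at 42.8% and 33.2% in swim-up sperm and at 44.3% and 38.5% in HRCS.

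The Zrsr1 window 22873001 to 22873200 lay at 0.541% and 0.513% in swim-up sperm and at 1.22% and 11.2% in HRCS. The last is a mean of site levels raised by site 22873159, methylated in 2 of 5 reads, while 6 of the 111 calls of the window were methylated. The highest Plagl1 window, 12809601 to 12809800, lay at 5.80%, 10.1%, 9.54% and 8.38%, and its largest difference, at 12810001 to 12810200, came from 2 methylated calls in swim-up replicate 2. The Mest window 30689201 to 30689400 was both the highest and the most different there, at 2.62%, 1.10%, 6.04% and 1.85%. The highest Peg10 window, 4698401 to 4698600, lay at 0.213%, 3.38%, 1.81% and 0.722%, and its most different window, 4699201 to 4699400, held 0 of 48 and 0 of 50 methylated calls in swim-up sperm, and in HRCS 1 of 127 and 2 of 116. In Grb10 the highest window, 11926001 to 11926200, lay at 1.38%, 2.13%, 1.19% and 2.61%, and the most different one, 11926401 to 11926600, at 0.655%, 1.32%, 3.33% and 0.410%.

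**Figure D4:**
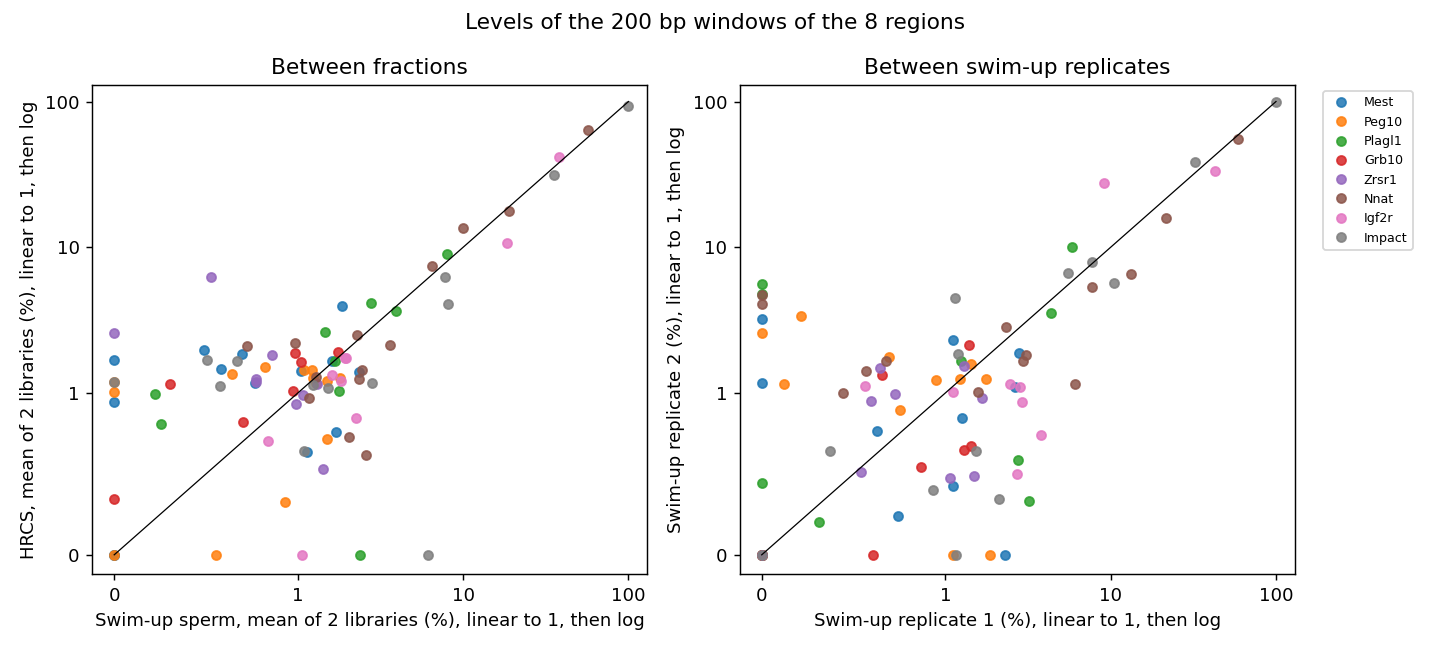
Level of each of the 89 region windows (%, both axes linear up to 1% and logarithmic above) in HRCS against swim-up sperm as means of 2 libraries (left), and in swim-up replicate 2 against replicate 1 (right), coloured by region, with the line of equal levels. Windows near 1% scatter about the line in both panels, and the Igf2r window at 9.17% and 27.4% in the swim-up libraries lies off it in both.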

How the data were processed

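Genomic DNA of 4 sperm samples had been enriched with SureSelect probes, tagged after bisulfite treatment and sequenced as single reads, and the authors mapped it to mm9 with Bmap. The deposited tables hold, by CG site and strand, counts of the reads and of those that were methylated, without normalization. Removal of duplicate reads is not given in the sources used here. The strands of each CG site were summed, and sites needed 5 reads in all libraries. Region means were compared with an exact permutation test. Windows were fitted with edgeR 4.0.16 (R 4.3.3) on methylated and unmethylated calls, with terms for the libraries, for methylated calls and for methylated calls in HRCS, and 1 dispersion. The fit was tested on simulated data. Other steps used scipy 1.17.1, pandas 2.3.3, numpy 2.4.6 and matplotlib 3.10.9 under Python 3.11.15. In each region the text names the highest window and site, the longest run without methylated reads, windows past the adjusted p and the most different window. Further sites along the edges and the flanks were named after their values were seen. Regions and tests were chosen with earlier results of these data known. The differences between replicates of the same number in each fraction were not correlated across windows (r = -0.00176). That gave no sign that replicate numbers pair libraries, but it cannot exclude it. Alternatives varied read and site minimums, window size, strand, test and libraries.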

Additional observations from a re-analysis of the deposited data

How the results depend on the processing

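No region window was called under any alternative run with edgeR, limma or Fisher's exact test. Calls were rare among all windows in each of them, so this says little about the regions. The count of windows called in the whole genome moved from 13 to 7 and 2 with minimums of 10 and 20 reads, to 6 with windows of 500 bp and also to 6 with at least 5 sites, to 0 with limma (20648 at an unadjusted p under 0.05) and to 2397 with Fisher's exact test. It ranged from 3 to 36 when 1 library was left out, a lone library then being assumed to vary like the others, with 36 and 4 when swim-up replicate 1 or 2 was left out and 8 and 3 when HRCS replicate 1 or 2 was. With the replicate block it was 9, and the block, which pairs libraries by number, left the difference of the 8-region mean at 0.141 points. That difference became 0.309 with a minimum of 1 read and -0.0541 with 10 reads, and ranged from 0.00310 to 0.279 without 1 library. The sign changed in at least 1 alternative for Peg10, Plagl1, Nnat and Impact, and in none for Mest, Grb10, Zrsr1 and Igf2r, where the differences spanned 0.0451 to 0.811, 0.259 to 1.72, 0.0264 to 1.58 and -1.06 to -0.224. The cause was not tested. At the main setting the libraries of the fractions did not overlap in Mest, Grb10, Zrsr1 and Igf2r. Leaving out 1 library could therefore not change the sign there, and the other alternatives counted the same libraries again. The plus strand alone gave no mean over the 8 regions, because only Zrsr1 (28 sites) and Impact (2 sites) had enough reads on it. At 5 reads a single read moves a site by 20 points, so single sites are less firm than region means.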

Other observations

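Some methylated reads stood in 1 library alone. At 30 CG sites of the 8 regions, a single library had at least 3 methylated reads and the other libraries had none. These were 5 sites in swim-up replicate 1, 9 in swim-up replicate 2, 9 in HRCS replicate 1 and 7 in HRCS replicate 2. Of the 30 sites, 12 lay within 100 bp of another such site of the same library. In the Grb10 intron, sites 11926231, 11926249 and 11926264 had 3 of 30, 4 of 36 and 3 of 28 methylated reads in HRCS replicate 2, against 0 of 71, 0 of 46 and 0 of 41 in the other libraries. In Impact, sites 13131921, 13131929 and 13131978 had 5 of 39, 3 of 37 and 4 of 39 methylated reads in swim-up replicate 2, against 0 of 129, 0 of 121 and 0 of 93 elsewhere. Reads ran to 100 bases, so neighbouring sites can be covered by the same read, and counts per site cannot tell a few reads methylated at several sites from more reads methylated at a single site.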
